A study of Mus musculus with 12 samples.

Results

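Mitogens in serum act on fibroblasts through receptor tyrosine kinases and the adaptors that dock on them, and the RNA levels of 9 such genes were followed here through serum stimulation and depletion of the nuclear protein Lap2. The set was chosen by name, with earlier results of these data known. It holds 7 receptor genes, namely Pdgfra, Pdgfrb, Egfr, Fgfr1, Igf1r, Insr and Met, and the insulin receptor substrate genes Irs1 and Irs2. All 9 were matched by symbol to the identifiers in the count files, which list 49671 genes, and all 9 passed the expression filter that left 18668 genes for testing.

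RNA-seq was performed in NIH 3T3 cells, an immortalised mouse embryonic fibroblast line. Cells received either a non-targeting control siRNA or an siRNA against Lap2, the family of nuclear lamina and nucleoplasmic proteins encoded by Tmpo, and RNA was taken from serum-starved cells in 0.3% FBS or after 45 min in 15% FBS. Each of the 4 combinations had 3 libraries (12 in all), and every group shared the transfection, so an effect of transfection itself is in all of them. The Lap2 siRNA was directed against both the membrane-anchored and the nucleoplasmic isoforms, whose reads the gene-level counts add together. It had a single sequence, so its effects on other RNAs cannot be told apart from those of losing Lap2. The study describes triplicates without naming separate cultures, and p-values measure the spread between these libraries. The replicate numbers used here follow the order of the sample titles.

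A receptor tyrosine kinase binds its growth factor outside the cell, dimerises and phosphorylates its own tail, which recruits adaptors that start the RAS-ERK and PI3K-AKT pathways. The insulin and IGF1 receptors do so largely through the IRS proteins, which carry the docking tyrosines for PI3K. In fibroblasts the PDGF receptors are the classical route by which serum drives entry into the cell cycle, and the amounts of receptors and IRS proteins are adjusted by feedback from the pathways they feed.

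Total counts per library ranged from 18026298 to 26265253. Tmpo, the targeted gene, had 2775, 2805 and 2885 normalized counts in starved controls and 3264, 3243 and 3019 after serum, against 982, 1175 and 1093 and then 767, 745 and 607 in Lap2-depleted cells, that is 38.4% of control in 0.3% FBS and 22.2% in 15% FBS. With serum in Lap2-depleted cells Tmpo itself fell (log2FC -0.62, adjusted p = 1.9e-07 in edgeR). Its serum response differed between the siRNAs by -0.79 (adjusted p = 2.95e-06 in edgeR). A normalized count is a raw count brought to the mean library size, with sizes scaled by TMM factors. Of 9 fibroblast markers only Fap stayed under 1 CPM in every library. Their summed level was 38053 to 39415 CPM in starved controls, 40549 to 44612 in stimulated controls, 23752 to 28687 in starved Lap2-depleted cells and 28851 to 32134 in stimulated ones, while the summed markers of epithelial, endothelial, immune, muscle and fat cells never passed 2.56 CPM. The lower fibroblast sum in Lap2-depleted cells stands beside every comparison between the siRNAs below, and its part in them was not tested. In bulk RNA, fewer cells of a kind and less RNA per cell cannot be told apart.

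One library stood apart. In replicate 1 of the starved Lap2-depleted cells, the log2 levels of 10444 genes deviated from the mean of the other 2 libraries of the group with an SD of 0.231, against 0.117 to 0.157 in the other 11 libraries. The deviation followed transcript length. With genes split into 5 equal bins by summed exon length, its median was 0.18 in the shortest bin and -0.19 in the longest. The exon length of all 9 members exceeded the median of 4662.5 bases, and all 9 were lowest in this library of its group, with a median deviation of -0.22. What part this had in the results was not tested. Member values that involve starved Lap2-depleted cells are therefore also given without it where a call changed, and for other values in part. The counts of the pathway lists are given both ways.

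**Figure D1:**
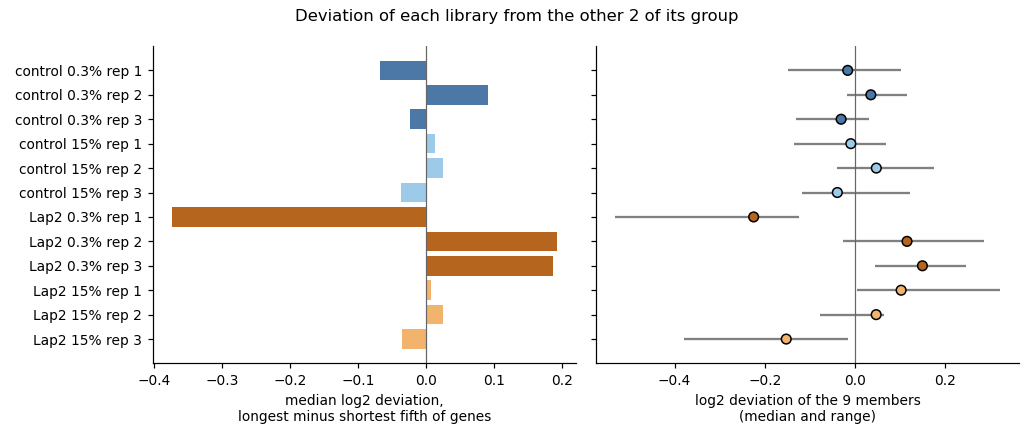
The left panel shows, for each of the 12 libraries, the median log2 deviation from the other 2 libraries of its group in the longest minus the shortest of 5 bins of genes by exon length. The right panel shows the median (point) and range (line) of the same deviation over the 9 members. Replicate 1 of the starved Lap2-depleted cells reaches -0.37 on the left and lies wholly below 0 on the right. Replicate 3 of the stimulated Lap2-depleted cells also had all 9 members below 0, with -0.04 on the left.

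Compared per length, the receptors fell into separate tiers. Levels are given as RPKM, here the TMM-scaled CPM per kilobase of summed exons. Over the 12 libraries Pdgfra averaged 78.9, Fgfr1 76.1 and Pdgfrb 57.3 RPKM, at percentiles 97.2, 97.1 and 96.0 of the tested genes, while Igf1r (11.2), Irs2 (11.2), Met (9.88), Irs1 (5.25) and Insr (4.99) were in the middle and Egfr was lowest at 2.39. In starved controls the order was Pdgfra (150), Fgfr1 (77.7), Pdgfrb (59.7), Igf1r (11.8), Met (11.0), Irs1 (8.80), Irs2 (8.44), Insr (4.87) and Egfr (2.71 RPKM), and of the neighbours in that order only Irs1 and Irs2 overlapped between libraries. After serum no neighbours overlapped in controls, and Fgfr1 (84.3 RPKM) led Pdgfra (66.9 RPKM). Fgfr1 also led in both groups of Lap2-depleted cells, at 72.4 and 70.0 RPKM. It overlapped with Pdgfrb in the starved group, and Pdgfrb overlapped with Pdgfra in the stimulated group. Irs1 dropped to the last place in stimulated Lap2-depleted cells at 2.56 RPKM, where it overlapped with Egfr at 2.58. The lowest raw count behind any member in any library was 440, for Egfr.

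**Figure D2:**
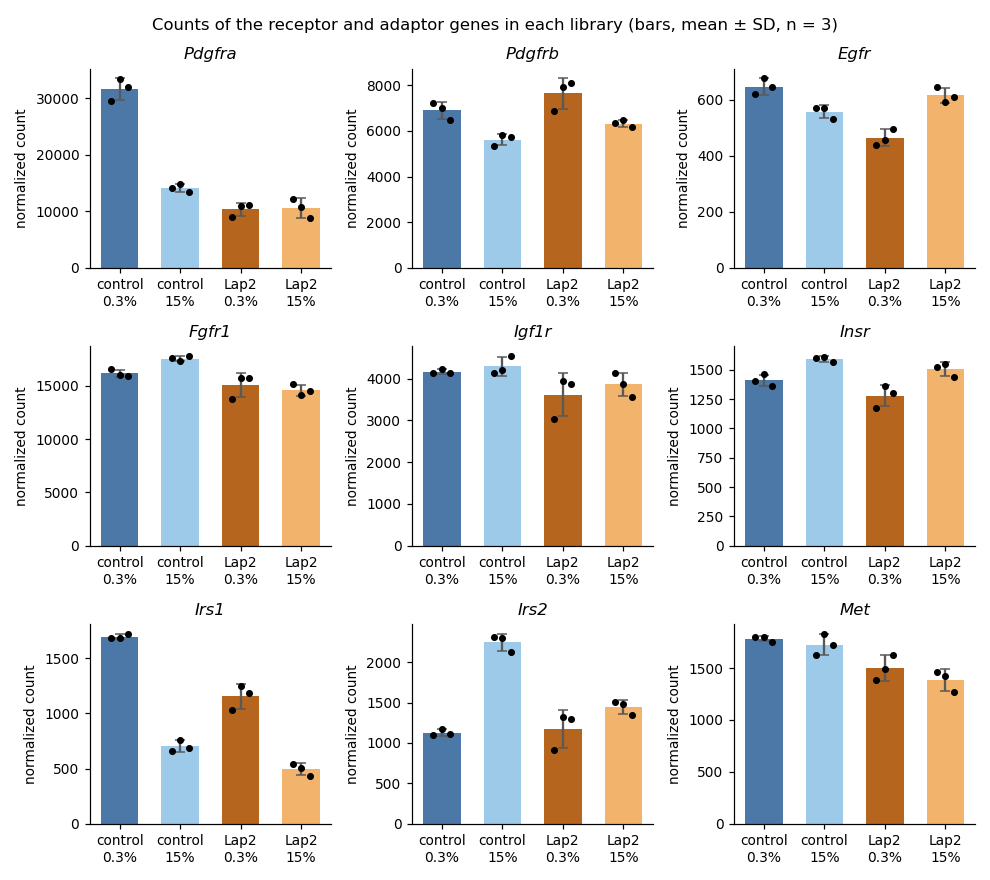
Normalized counts of the 9 genes (vertical axes, each from 0) in cells with control or Lap2 siRNA in 0.3% or 15% FBS. Points are libraries in replicate order, bars are means and error bars the SD of 3 libraries. Starved control cells stand alone at the top of the Pdgfra panel and stimulated control cells at the top of the Irs2 panel.

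With control siRNA, 45 min of serum changed the RNA of 5 of the 9 members in edgeR's quasi-likelihood test at an adjusted p under 0.05. Irs2 rose, and Pdgfra, Pdgfrb, Egfr and Irs1 fell. Among all tested genes 29.5% were called in this comparison, 15.6% higher and 13.9% lower, and the median log2FC was -0.05 for the members against -0.01 for all genes. The normalized counts of the groups did not overlap for 7 members, against 42.0% of all genes. With Lap2 siRNA 5 members were again called, 3 higher (Egfr, Insr and Irs2) and 2 lower (Pdgfrb and Irs1), where 33.2% of all genes were called, 18.3% higher and 14.9% lower, and groups were apart for 5 members and for 41.7% of all genes. Without the library that stood apart the members called with Lap2 siRNA were also 5, of 34.6% of all genes, but Irs2 and Insr were replaced by Fgfr1 and Met.

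Lap2 siRNA in starved cells gave 5 calls, all lower, for Pdgfra, Egfr, Igf1r, Irs1 and Met. Of all genes 36.5% were called, 17.8% higher and 18.6% lower, and groups were apart for 7 members and 43.4% of all genes. The calls became 6 without replicate 1, with Pdgfra, Egfr, Irs1 and Met lower and Pdgfrb and Irs2 higher, where 37.6% of all genes were called, 19.3% higher and 18.4% lower. In stimulated cells the calls with Lap2 siRNA were again 5 and all lower, for Pdgfra, Fgfr1, Irs1, Irs2 and Met, against 23.4% of all genes, 11.4% higher and 12.1% lower, with groups apart for 8 members and 38.8% of all genes. The median log2FC of the members was -0.20 in 0.3% FBS and -0.27 in 15% FBS, beside 0.01 and 0.02 for all genes. Leaving out replicate 1 moved the first of these to -0.07, beside 0.02 for all genes. The serum response itself, tested as an interaction, differed between the siRNAs for 3 members, with a signed difference (Lap2 siRNA minus control siRNA) above 0 for Pdgfra and Egfr and below 0 for Irs2, where 13.6% of all genes were called, 7.09% higher and 6.51% lower. Leaving replicate 1 out, the interaction was called for 4 members, Fgfr1 being the addition, and for 18.9% of all genes. The depletion of Tmpo also differed between the serum conditions, and its part in these interactions was not tested. The comparisons share groups, so they are not independent of each other. The median absolute log2FC was 0.21 for the members against 0.31 for all genes with serum in controls, and 0.23 against 0.34 in Lap2-depleted cells. With Lap2 siRNA it was 0.20 against 0.37 in 0.3% FBS and 0.27 against 0.27 in 15% FBS, and for the interaction 0.07 against 0.31. All genes include ones counted little more than 1 time, while no member fell below 440 counts. What part this had in the shares called was not tested.

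**Figure D3:**
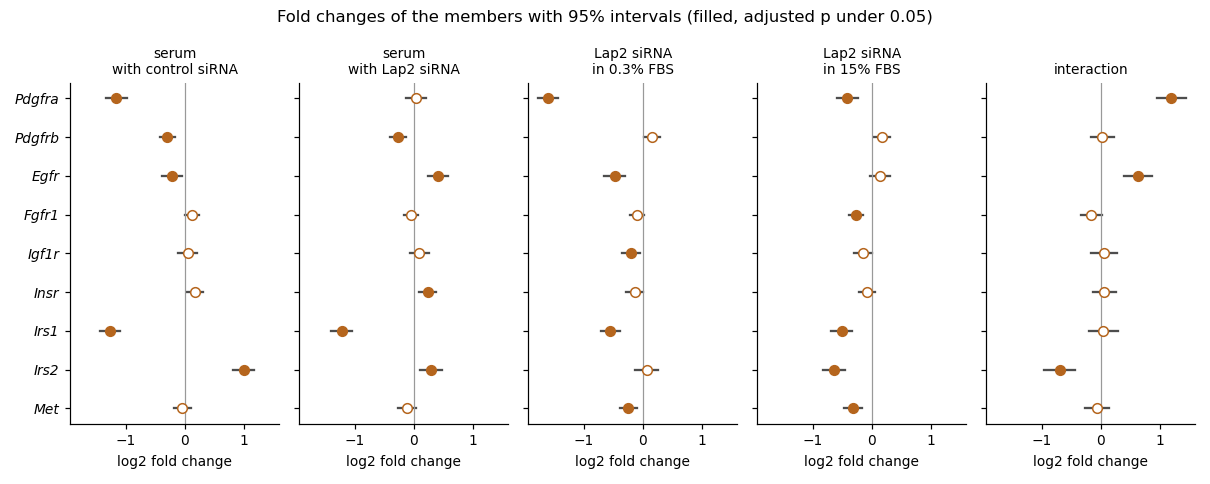
Log2 fold changes (horizontal axes) of the 9 members in the 4 comparisons and the interaction, with 95% confidence intervals as lines. Filled points had an adjusted p under 0.05 in edgeR. The point farthest from 0 is Pdgfra with Lap2 siRNA in 0.3% FBS at -1.61. Next are Irs1 with serum, at -1.27 in control and -1.23 in Lap2-depleted cells. The Pdgfra interaction at 1.20 and Pdgfra with serum in control cells at -1.16 follow.

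Pdgfra, on chromosome 5, encodes the receptor that binds most PDGF dimers. It had 29526, 33343 and 32089 normalized counts in starved controls and 14064, 14886 and 13453 after serum. Starved Lap2-depleted cells had 9056, 10877 and 11127, and stimulated ones 12190, 10782 and 8819. The starved control libraries lay above the other 9 by more than the whole spread of those. Serum lowered Pdgfra to 44.7% of the starved level in controls, a log2FC of -1.16 (SE 0.08, adjusted p = 2.49e-13). In Lap2-depleted cells the serum difference was 0.03 (95% interval -0.14 to 0.20, adjusted p = 0.815), and -0.07 without replicate 1 of the starved group. Lap2 siRNA lowered Pdgfra to 32.7% of control in 0.3% FBS, a log2FC of -1.61 (SE 0.08, adjusted p = 2.29e-16, and -1.51 without replicate 1), and to 75.0% in 15% FBS, a log2FC of -0.42 (adjusted p = 2.7e-04). The interaction was 1.20 (SE 0.12, adjusted p = 5.84e-09) and 1.08 without replicate 1. In Lap2-depleted cells, which held less Pdgfra RNA before serum than controls did after it, no serum response was detectable within the interval given.

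The 250 bases before the RefSeq start of Pdgfra (GRCm38.p6, plus strand, chr5:75152001-75152250) are shown because this gene had the largest difference in serum response among the members. None of the motifs searched was found in it, so it holds no capitals. Its GC content was 54.4%. The RefSeq start lies 41 bases from the gene start in the annotation used for the exon lengths.
Pdgfra: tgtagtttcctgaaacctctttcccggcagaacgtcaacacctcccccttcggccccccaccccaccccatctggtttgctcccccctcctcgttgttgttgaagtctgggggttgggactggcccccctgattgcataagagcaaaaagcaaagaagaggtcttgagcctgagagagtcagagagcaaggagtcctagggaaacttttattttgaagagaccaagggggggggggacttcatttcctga

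Pdgfrb, on chromosome 18, encodes the receptor for PDGF-BB and PDGF-DD. Its normalized counts were 7225, 6989 and 6488 in starved controls, 5329, 5809 and 5719 in stimulated controls, 6874, 7941 and 8125 in starved Lap2-depleted cells and 6337, 6464 and 6175 in stimulated ones. Each stimulated group lay below its own starved group. Serum lowered Pdgfrb by a log2FC of -0.30 (SE 0.07, adjusted p = 5.61e-04) with control siRNA and of -0.27 (SE 0.07, adjusted p = 0.00124) with Lap2 siRNA, and the interaction was 0.02 (95% interval -0.17 to 0.21). The second value was -0.36 without replicate 1 of the starved group, and total-count scaling gave -0.50 for both. Without that library the interaction was -0.08. Lap2 siRNA gave 0.15 in 0.3% FBS (adjusted p = 0.0787) and 0.17 in 15% FBS (adjusted p = 0.0591), neither past the threshold. The first became a call without replicate 1 (0.24, adjusted p = 4.98e-04), with DESeq2 (0.16, adjusted p = 0.0435) and with total-count scaling (0.26, adjusted p = 0.00180). The second became one with total-count scaling (0.26, adjusted p = 0.00305) and in a fit of only the groups compared (0.16, adjusted p = 0.0109).

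The balance of the PDGF receptors was read within each library as a ratio of RPKM values, which no scaling between libraries can change. Pdgfra exceeded Pdgfrb by 2.23-, 2.61- and 2.70-fold in starved controls and by 1.44-, 1.40- and 1.29-fold in stimulated controls. In starved Lap2-depleted cells the ratio was 0.720, 0.749 and 0.748, and in stimulated ones 1.05, 0.912 and 0.781. The 4 groups did not overlap in any of the 4 comparisons, each of which gave p = 0.1 in a two-sided exact permutation test, the smallest that 3 against 3 libraries allow. Starved Lap2-depleted cells were thus the group with the least Pdgfra relative to Pdgfrb, also without replicate 1.

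**Figure D4:**
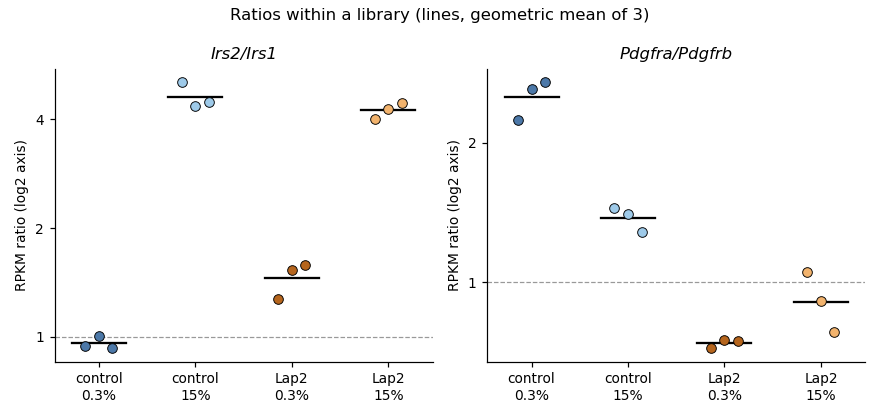
Ratios of RPKM values within each library on log2 axes, Irs2 over Irs1 on the left and Pdgfra over Pdgfrb on the right. Points are libraries, horizontal lines are geometric means of 3, and the dashed line marks equal levels. With serum the Irs2/Irs1 points go from between 0.930 and 1.01 to above 4 in controls, and from between 1.27 and 1.58 to above 4 in Lap2-depleted cells, and the Pdgfra/Pdgfrb points above 2 are the 3 starved control libraries.

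Summed over the 7 receptors, the level was 317 ± 7.64 RPKM (SD, n = 3) in starved controls, 230.4 ± 4.23 in stimulated controls, 213 ± 19.1 in starved Lap2-depleted cells and 202 ± 12.0 in stimulated ones. Pdgfra made up 47.1% ± 2.04 of it in starved controls, 29.0% ± 1.17 in stimulated controls, and 22.9% ± 0.474 and 24.7% ± 2.54 in the Lap2-depleted groups. Fgfr1 moved from 24.5% ± 0.934 in starved controls to 36.6% ± 1.06 after serum, while its own level rose from 77.7 to 84.3 RPKM without passing the test. Most of the difference between the starved controls and the other groups was thus in Pdgfra.

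**Figure D5:**
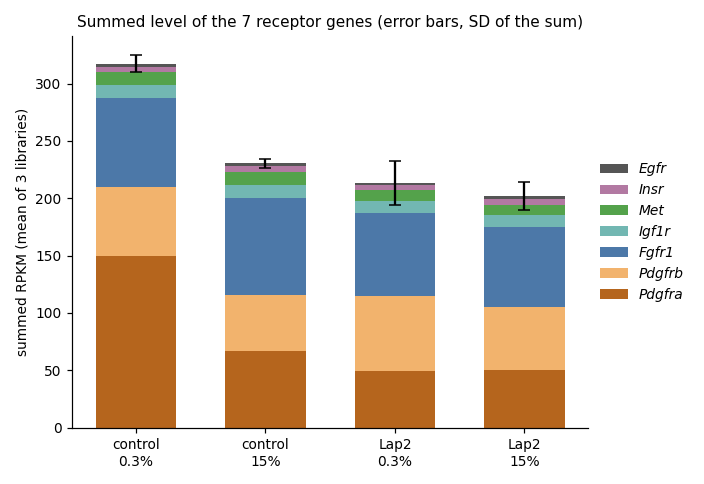
Summed RPKM of the 7 receptor genes (vertical axis, from 0) in the 4 groups, stacked by gene as means of 3 libraries, with the SD of the sum. The starved control column reaches 317 RPKM and the others 202 to 230.4, and the Pdgfra segment at the base shrinks from 150 to 66.9, 49.0 and 50.1 RPKM.

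Fgfr1, on chromosome 8, encodes the main FGF receptor of mesenchymal cells. It had 16545, 16046 and 15953 normalized counts in starved controls and 17572, 17316 and 17792 after serum, and in Lap2-depleted cells 13756, 15739 and 15742 and then 15154, 14126 and 14470. The stimulated control libraries were the 3 highest of all 12. The serum difference in controls was 0.12 (95% interval -0.01 to 0.24, adjusted p = 0.156), and in Lap2-depleted cells -0.05 (adjusted p = 0.609). Lap2 siRNA lowered Fgfr1 in 15% FBS by a log2FC of -0.27 (SE 0.06, adjusted p = 0.00105). It gave -0.10 in 0.3% FBS (adjusted p = 0.205), or -0.02 without replicate 1 of the starved Lap2-depleted group. Without replicate 1, serum with Lap2 siRNA gave -0.13 (adjusted p = 0.0391) and the interaction -0.26 (adjusted p = 0.00310), both calls, where the full data gave an interaction of -0.17 (adjusted p = 0.229). With total-count scaling serum with Lap2 siRNA gave -0.28, also a call, and the serum value in controls turned to -0.09 (adjusted p = 0.261).

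Egfr, on chromosome 11, encodes the receptor for EGF and its relatives. Its normalized counts were 620, 678 and 644 in starved controls and 571, 570 and 532 in stimulated controls. They were 437, 458 and 496 in starved Lap2-depleted cells and 646, 594 and 609 in stimulated ones. The starved Lap2-depleted libraries were the 3 lowest of the 12, and the stimulated Lap2-depleted libraries lay above the stimulated controls. Lap2 siRNA lowered Egfr in 0.3% FBS by a log2FC of -0.48 (SE 0.08, adjusted p = 1.74e-05, and -0.42 without replicate 1) and gave 0.14 in 15% FBS (95% interval -0.03 to 0.31), or 0.23 with total-count scaling (adjusted p = 0.0403), a call. Serum raised Egfr in Lap2-depleted cells by 0.41 (SE 0.08, adjusted p = 2.12e-04), or 0.35 without replicate 1. With total-count scaling this rise was 0.18 (adjusted p = 0.0926). In controls serum gave -0.21 (adjusted p = 0.0482), or -0.42 with total-count scaling (adjusted p = 9.65e-05). The call at -0.21 lay at the threshold and was lost without any 1 of 5 of the 6 libraries compared, with log2FCs of -0.18 without replicate 2 and -0.21 without replicate 3 of the starved controls, and -0.23, -0.24 and -0.19 without replicates 1, 2 and 3 of the stimulated controls. The responses nevertheless differed between the siRNAs, with an interaction of 0.62 (SE 0.12, adjusted p = 2.63e-04) and of 0.55 without replicate 1 of the starved Lap2-depleted group.

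The window before the Egfr start (GRCm38.p6, plus strand, chr11:16751953-16752202), shown because its serum response also differed between the siRNAs, had a GC content of 60.8%. Capitals mark a GC box on the reverse strand (GGGCGG, the core bound by Sp1-type factors), which 33.0% of the 32536 different windows of this length in the RefSeq table hold.
Egfr: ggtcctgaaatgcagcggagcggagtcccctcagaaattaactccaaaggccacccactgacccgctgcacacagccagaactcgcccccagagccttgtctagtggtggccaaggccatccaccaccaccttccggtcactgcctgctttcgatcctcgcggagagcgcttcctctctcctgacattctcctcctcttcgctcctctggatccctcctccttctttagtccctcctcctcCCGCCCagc

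Met, on chromosome 6, encodes the receptor for hepatocyte growth factor. It had 1798, 1797 and 1756 normalized counts in starved controls and 1628, 1830 and 1724 in stimulated controls. Lap2-depleted cells had 1385, 1492 and 1630 when starved and 1462, 1425 and 1270 when stimulated. Within each serum level the Lap2-depleted libraries lay below the controls. Lap2 siRNA lowered Met by a log2FC of -0.25 (SE 0.07, adjusted p = 0.00607) in 0.3% FBS and of -0.32 (SE 0.07, adjusted p = 0.00111) in 15% FBS. The first was -0.18 without replicate 1 (adjusted p = 0.0389), and with total-count scaling it was -0.14 (adjusted p = 0.131), no longer a call. Serum gave -0.05 in controls and -0.12 in Lap2-depleted cells (adjusted p = 0.703 and 0.245), and the latter became -0.19 (adjusted p = 0.0305) without replicate 1. Total-count scaling made both into calls, at -0.25 and -0.35.

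Igf1r, on chromosome 7, and Insr, on chromosome 8, encode the IGF1 and insulin receptors, close relatives that can form hybrid dimers. Igf1r ranged from 4126 to 4231 normalized counts in starved controls, 4124 to 4541 in stimulated controls, 3035 to 3941 in starved Lap2-depleted cells and 3566 to 4133 in stimulated ones. In 0.3% FBS the log2FC with Lap2 siRNA was -0.20 (SE 0.08, adjusted p = 0.0349). This call rested on replicate 1, without which the value was -0.07 (adjusted p = 0.371). With total-count scaling it was -0.09 (adjusted p = 0.362), and the call was also lost without any 1 of the starved control libraries, with log2FCs of -0.21, -0.19 and -0.19 without replicates 1, 2 and 3. DESeq2 lost the call too (-0.19, adjusted p = 0.0607). No other comparison of Igf1r passed the test in the fit of all 4 groups. Lap2 siRNA in 15% FBS gave -0.15 (adjusted p = 0.158), which became a call in a fit of only the groups compared (-0.16, adjusted p = 0.0250). The serum differences of Igf1r were 0.04 (95% interval -0.11 to 0.20) and 0.09 (-0.06 to 0.25), the latter being -0.03 without replicate 1 of the starved Lap2-depleted group.

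Insr had 1402, 1464 and 1367 normalized counts in starved controls and 1602, 1613 and 1565 after serum, and 1179, 1360 and 1305 and then 1528, 1547 and 1436 in Lap2-depleted cells. Both stimulated groups lay above their starved groups. The log2FC was 0.17 (SE 0.07, adjusted p = 0.0519) with control siRNA and 0.23 (SE 0.07, adjusted p = 0.00851) with Lap2 siRNA, and the interaction was 0.06 (95% interval -0.14 to 0.25). The second value was 0.16 without replicate 1 (adjusted p = 0.0595), no longer a call, and the interaction was then -0.03. The value with control siRNA became a call with DESeq2 (0.18, adjusted p = 0.0269) and with edgeR's filterByExpr filter (0.17, adjusted p = 0.0403). It also became one in a fit of only the groups compared (0.18, adjusted p = 0.0229). Scaled to total counts, the serum values were -0.03 and 0.00, so the serum differences of Insr rest on the scaling. Lap2 siRNA gave -0.14 in 0.3% FBS (adjusted p = 0.114) and -0.08 in 15% FBS (adjusted p = 0.442), neither a call. Neither pair of groups overlapped, and the first value was -0.07 without replicate 1.

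Irs1, on chromosome 1, and Irs2, on chromosome 8, encode the IRS adaptors, and serum moved them in opposite directions. Irs1 had 1685, 1686 and 1721 normalized counts in starved controls and 660, 763 and 690 after serum. In Lap2-depleted cells it had 1030, 1248 and 1187 when starved and 543, 500 and 437 when stimulated. No group overlapped with another. Serum lowered Irs1 to 41.5% of the starved level in controls (log2FC -1.27, SE 0.08, adjusted p = 1.59e-14) and to 42.7% in Lap2-depleted cells (log2FC -1.23, SE 0.09, adjusted p = 1.51e-13), with an interaction of 0.04 (95% interval -0.20 to 0.28). Lap2 siRNA lowered it to 68.0% of control in 0.3% FBS (log2FC -0.56, SE 0.08, adjusted p = 7.81e-07) and to 69.9% in 15% FBS (log2FC -0.52, SE 0.09, adjusted p = 3.12e-05). Leaving out replicate 1, the starved value was -0.46 and the serum value with Lap2 siRNA -1.32, both still calls. The interaction was then -0.07. The effects of serum and of Lap2 siRNA on Irs1 were thus close to additive on the log2 scale, within the interval of the interaction.

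Irs2 had 1096, 1176 and 1107 normalized counts in starved controls and 2318, 2295 and 2127 after serum, and in Lap2-depleted cells 907, 1324 and 1300 and then 1505, 1480 and 1343. The stimulated controls stood above the other 9 libraries. Serum raised Irs2 1.99-fold in controls (log2FC 1.00, SE 0.09, adjusted p = 7.39e-11). In Lap2-depleted cells the rise was 1.23-fold (log2FC 0.30, SE 0.09, adjusted p = 0.0119), and this call was lost without replicate 1 of the starved group (0.12, adjusted p = 0.184) or replicate 1 of the stimulated group (0.26, adjusted p = 0.0575) and with total-count scaling (0.06, adjusted p = 0.624). The interaction was -0.70 (SE 0.13, adjusted p = 1.87e-04), and -0.89 without replicate 1 of the starved group. Lap2 siRNA lowered Irs2 to 64.2% of control in 15% FBS (log2FC -0.64, SE 0.09, adjusted p = 1.4e-06) and gave 0.06 in 0.3% FBS (95% interval -0.13 to 0.25, adjusted p = 0.666), or 0.24 (adjusted p = 0.00491) without replicate 1.

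Per length the adaptors stood level in starved controls, with Irs2/Irs1 ratios of 0.941, 1.01 and 0.930, and serum took the ratio to 5.08, 4.35 and 4.46. In Lap2-depleted cells the ratio was 1.27, 1.53 and 1.58 when starved and 4.01, 4.28 and 4.45 when stimulated. The starved groups did not overlap (exact permutation p = 0.1, the smallest possible), while the stimulated groups did (exact permutation p = 0.2). Serum raised the ratio in both siRNA groups without overlap, 4.81-fold in controls and 2.91-fold in Lap2-depleted cells on the geometric mean (exact permutation p = 0.1 each).

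The windows of 250 bases before the RefSeq starts of Irs1 (GRCm38.p6, minus strand, chr1:82291440-82291689) and Irs2 (minus strand, chr8:11008930-11009179) are shown because the genes moved apart with serum. Both are rich in GC, at 72.4% and 72.8%. Capitals mark GC boxes (GGGCGG), an E-box (CACGTG, a core bound by basic helix-loop-helix factors) and the letters TGTTTTG, the core of the insulin response sequence to which FOXO factors bind. In Irs1 the E-box and the first TGTTTTG share the letters TG and stand as 1 run of capitals. The E-box and TGTTTTG were added after the sequences had been read. An E-box was in 6.04% of all windows, TGTTTTG in 5.60% and both in 0.298%. Because the letters were picked from these sequences, the shares do not measure how unusual the sequences are. All windows had a median GC content of 52.4%.
Irs1: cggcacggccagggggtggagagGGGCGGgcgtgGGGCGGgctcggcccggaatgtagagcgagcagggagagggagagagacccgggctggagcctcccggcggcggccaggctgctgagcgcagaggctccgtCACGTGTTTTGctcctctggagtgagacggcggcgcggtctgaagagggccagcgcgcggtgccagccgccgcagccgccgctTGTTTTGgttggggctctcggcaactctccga
Irs2: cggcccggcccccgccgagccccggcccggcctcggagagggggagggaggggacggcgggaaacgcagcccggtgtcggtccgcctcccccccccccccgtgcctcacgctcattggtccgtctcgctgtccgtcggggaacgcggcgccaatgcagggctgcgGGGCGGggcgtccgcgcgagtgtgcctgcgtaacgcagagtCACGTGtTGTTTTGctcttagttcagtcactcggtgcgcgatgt

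In all, 6 of the 9 members had a window in the RefSeq table, Met and Igf1r being the others. Each of the 6 except Pdgfra held a GC box, and Met also held an E-box and, alone of the 6, an AP-1 site (TGANTCA, in 6.73% of windows). No window of the 6 held the letters of an EGR site (GCGGGGGCG, 2.60% of windows), a CRE (TGACGTCA, 1.56%), a FOXO site (GTAAACA, 3.17%), the SRF CArG box (1.48%) or a TATA box (TATAAA, 12.3%) on either strand. The RefSeq start lay 23 bases from the annotated gene start for Irs1, 471 for Irs2, 0 for Egfr, 157 for Met and 570 for Igf1r. A match of letters is a description of the window only.

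Related genes were read from lists, whose counts stand beside the share of all tested genes called in the same comparison. That share was 29.5% for serum with control siRNA and 33.2% with Lap2 siRNA, where the lists had 33.3% to 61.9% and 44.4% to 52.9%. It was 36.5% for Lap2 siRNA in 0.3% FBS and 23.4% in 15% FBS, where the lists had 44.4% to 78.6% and 28.6% to 52.4%. A count near that share does not set a list apart. The ligands of these receptors were read from a list of 21 genes, of which 17 passed the filter. With control siRNA serum raised 7 and lowered 1, and with Lap2 siRNA it raised 8 and lowered 1 (7 and 1 without replicate 1 of the starved group). Among those averaging 100 normalized counts or more, Hbegf and Ereg, both ligands of the EGF receptor, had the largest rises in both, Hbegf from 69.1 to 7357 normalized counts in controls (log2FC 6.74, adjusted p = 9.1e-31) and from 92.7 to 7129 in Lap2-depleted cells. Lap2 siRNA in starved cells raised 6 and lowered 5 (5 and 4 without replicate 1). Hgf, the ligand of Met, rose from 1211 ± 42.0 to 2985 ± 66.4 (log2FC 1.30, adjusted p = 5.6e-17), while Igf2, which signals through Igf1r and Insr, fell from 13578 ± 3564 to 1208 ± 265 (log2FC -3.49, adjusted p = 1.91e-17). Igf2 in stimulated Lap2-depleted cells was 12258 ± 4031, an interaction of 3.13 (adjusted p = 3.32e-12) for a gene with wide spread between libraries. In 15% FBS Lap2 siRNA raised 2 ligands, Hgf and Fgf7, and lowered 4.

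Among 19 related receptors 14 passed the filter. Lap2 siRNA lowered 10 and raised 1 of them in 0.3% FBS (median log2FC -0.56, against 0.01 for all genes) and lowered 6 and raised 0 in 15% FBS (median -0.31). Igf2r, which carries IGF2 to lysosomes, fell from 16027 to 7550 normalized counts in 0.3% FBS (log2FC -1.09, adjusted p = 6.7e-14) and from 16609 to 8822 in 15% FBS. Erbb2, a partner of Egfr, fell in both as well (log2FC -0.83 and -0.68). With serum 3 rose and 2 fell in controls and 7 rose in Lap2-depleted cells, Ddr1 rising in both (log2FC 0.46 and 0.87). Without replicate 1, the starved counts with Lap2 siRNA were 10 lower and 2 higher, and serum in Lap2-depleted cells raised 4 and lowered 1.

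Of 23 other adaptors 21 passed the filter, and Lap2 siRNA in 0.3% FBS lowered 11 and raised 2 (9 and 2 without replicate 1, and 6 and 2 with total-count scaling). Gab1, a docking protein of the Met and EGF receptors, fell by 0.83 on the log2 scale in 0.3% FBS and by 0.72 in 15% FBS, and Nck2 fell by 0.89 and by 0.43. In 15% FBS 3 rose and 3 fell. Serum raised 7 and lowered 6 in controls, among them Sos2, an exchange factor for RAS (log2FC 0.79), and Nck1 (-0.61), and it raised 10 and lowered 1 in Lap2-depleted cells, or 9 and 2 without replicate 1.

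All 21 listed genes of the PI3K-AKT-mTOR pathway and all 18 of the RAS-ERK pathway were tested. Lap2 siRNA lowered 9 and raised 0 of the RAS-ERK genes in 15% FBS (6 and 2 with total-count scaling) and lowered 7 and raised 1 in 0.3% FBS, or 6 and 3 without replicate 1. In the PI3K list 7 rose and 7 fell in 0.3% FBS (7 and 6 without replicate 1) and 3 rose and 5 fell in 15% FBS. Pik3cd, a catalytic subunit of PI3K, fell in both (log2FC -1.06 and -0.89), and Mtor rose in both (0.50 and 0.42). Serum raised 6 and lowered 3 of the PI3K list in controls and raised 8 and lowered 2 in Lap2-depleted cells (7 and 5 without replicate 1). For the RAS-ERK list 6 rose and 0 fell in controls, and 7 rose and 1 fell in Lap2-depleted cells with or without that library. Rheb, the small GTPase that activates mTORC1, rose 3.10-fold with serum in controls and 2.04-fold in Lap2-depleted cells (interaction -0.60, adjusted p = 8.13e-06).

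Of 21 tested genes that attenuate receptors, serum raised 10 and lowered 1 with control siRNA and raised 9 and lowered 2 with Lap2 siRNA (9 and 4 without replicate 1). Errfi1, an inhibitor of the EGF receptor kinase, went from 358 to 39027 normalized counts in controls (log2FC 6.77) and from 426 to 27359 in Lap2-depleted cells (log2FC 6.01). Lrig3 fell in controls from 1163 to 359 (log2FC -1.69, adjusted p = 3.01e-16). In Lap2-depleted cells it had 548 when starved and 490 when stimulated, an interaction of 1.53 (adjusted p = 5.4e-10). Its starved level was lower with Lap2 siRNA (log2FC -1.09). Lap2 siRNA raised 7 and lowered 5 in 0.3% FBS (10 and 5 without replicate 1) and raised 6 and lowered 5 in 15% FBS. Socs1, a suppressor of cytokine and insulin signalling, rose in both (0.53 and 0.96), and Ptprf, a receptor phosphatase, fell in both (-1.46 and -0.76). The interaction was called for 4 genes of this list in the upward and 2 in the downward direction, beside 13.6% of all genes. Without replicate 1 it was called for 4 and 6, beside 18.9% of all genes. Without that library the starved Lap2 siRNA log2FC was 1.33 for Hgf, -3.36 for Igf2, -0.96 for Igf2r, -0.77 for Erbb2, -0.71 for Gab1, -0.93 for Pik3cd, 0.61 for Mtor and -1.32 for Ptprf, all still past the test.

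Scaling to total counts moved the median log2FC of all genes by -0.21 and -0.23 in the serum comparisons and by 0.11 and 0.09 in the comparisons of the siRNAs, and it changed the split of the list counts. The serum counts in controls then were 7 higher and 1 lower for ligands, 2 and 3 for related receptors, 4 and 9 for other adaptors, 4 and 8 for PI3K genes, 2 and 2 for RAS-ERK genes and 6 and 6 for attenuators. In Lap2-depleted cells they were 5 and 4, 4 and 2, 4 and 6, 2 and 7, 4 and 6, and 8 and 9. The balance of higher and lower calls thus moved with the scaling for each of those serum counts except that of the ligands in controls. Among the members the split moved for serum with control siRNA, to 1 higher and 5 lower, for serum with Lap2 siRNA, to 0 higher and 4 lower, for Lap2 siRNA in 0.3% FBS, to 1 and 3, and in 15% FBS, to 2 and 5, while the interaction kept 2 and 1.

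The genes whose log2 CPM followed each member most closely over the 12 libraries were taken from the 10449 genes averaging 100 normalized counts or more, as a description with no test, since the libraries share groups and the library that stood apart. Pdgfra was followed by Prokr1 (Pearson r = 0.996) and Marcks (0.989), Irs1 by Zfp41 (0.996) and Tfap2a (0.983), and Irs2 by Pdcd6ip (0.970) and Ralgapa1 (0.968). For Pdgfrb they were Dido1 and Kat14 (0.984 and 0.964), for Egfr Eef2 and Rnf144a (0.973 and 0.963), for Fgfr1 Hspg2 and Dnajc13 (0.957 and 0.955), for Insr Med13l and Rgl1 (0.971 and 0.969), for Met Sel1l and Trio (0.955 and 0.944), and for Igf1r Tsc2 and Itpr2 (0.941 and 0.916).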

How the data were processed

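The authors removed rRNA, prepared directional libraries for an Illumina NextSeq 500, aligned reads to mm10 with TopHat2 and counted them per gene with HTSeq. The strand setting of the counting is not given in the sources used here. The deposited values are raw counts per Ensembl gene, 1 file per library, with no normalization. Genes that overlap the members' exons held at most 15 counts in a library. The largest overlap, of Gm9747 with Irs1 on the opposite strand, covered 2822 of the 9144 exon bases of Irs1. Whether reads there went uncounted for Irs1, which would lower its RPKM, was not tested. Groups came from the labels, and 0 pairs of libraries were identical.

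The 18668 genes counted more than 1 time in 3 or more libraries were fitted with edgeR 4.0.16 (R 4.3.3, quasi-likelihood test, TMM factors, a mean for each of the 4 groups), with Benjamini-Hochberg adjustment over all of them and a threshold of 0.05. On simulated data for Lap2 siRNA in 15% FBS, 100% of 200 genes changed by a log2FC of 1 were recovered among 18668, with 13 unchanged genes called. The changed genes averaged 100 counts or more. Smaller changes, such as most of the member calls, and the deviation of the library that stood apart were not simulated. RPKM used the union of GENCODE M21 exons. Gene symbols were found for 99.3% of identifiers, and all members have the same position in the files and in that annotation. Promoter windows are RefSeq sequences. Alternatives were DESeq2 1.42.0, other scalings, filters and thresholds, and each library left out.

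The members, pathway lists and tests were chosen with earlier results of these data known. The text names every member, Tmpo, from each list and comparison genes among the 2 with the largest log2FC in each direction that passed the test and averaged 100 normalized counts or more, and the 2 genes most correlated with each member.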

Additional observations from a re-analysis of the deposited data

Results flagged for a closer look

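The 3 members named here were singled out because their serum response differed between the siRNAs in a test of the difference itself. For Pdgfra the response with Lap2 siRNA minus that with control siRNA was 1.20 on the log2 scale. All 3 stimulated control libraries lay below all 3 starved ones, while the libraries of Lap2-depleted cells overlapped. For Egfr the difference was 0.62, and the stimulated libraries lay below the starved ones in controls and above them in Lap2-depleted cells. For Irs2 it was -0.70, the stimulated libraries lying above the starved ones in both. The starved Lap2-depleted library that stood apart enters all 3 values, which were 1.08, 0.55 and -0.89 without it.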

How the results depend on the processing

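The member calls were 5, 5, 5, 5 and 3 in the order serum with control siRNA, serum with Lap2 siRNA, Lap2 siRNA in 0.3% FBS, Lap2 siRNA in 15% FBS and interaction. Requiring also an absolute log2FC above 0.6 left 3, 1, 1, 1 and 3. Leaving out each library in turn gave 4 to 5, 4 to 5, 4 to 6, 5 and 3 to 4. Over all 45 member results and their 630 alternative values, 586 kept their call, 23 lost one and 21 gained one. No called value changed sign, and 26 values called in neither fit did, over 12 results. In these values, which do not include the stricter thresholds, Pdgfra and Irs1 kept each of their calls, as did Irs2 for serum with control siRNA, Lap2 siRNA in 15% FBS and the interaction. The deviations of same-numbered libraries correlated at -0.12 to 0.10, and those of differently numbered ones at -0.21 to 0.22. No pairing by replicate number was thus seen, but with so few libraries this cannot tell whether any were paired by culture. With the replicate block the member calls were 4, 5, 5, 5 and 3, the loss being Egfr with serum in controls (adjusted p = 0.0618). DESeq2 also lost that call (0.0540) and gained Insr there (0.0269). The cause of these changes was not tested. Scaling to total counts raised the calls among attenuators with serum in Lap2-depleted cells from 11 to 17. The counts of the members were at least 440, and the part of depth in their calls was not tested. The values of the pathway lists and the members' median without replicate 1 of the starved Lap2-depleted cells were added after seeing the data.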

Other observations

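Further ratios of RPKM values were taken within each library. Igf1r over Insr overlapped between the groups in all 4 comparisons (exact permutation p of 0.2 to 0.5, two-sided). Met over Egfr differed without overlap between the siRNAs in both serum conditions, 1.17-fold higher with Lap2 siRNA in 0.3% FBS and 1.38-fold lower in 15% FBS, and fell 1.44-fold with serum in Lap2-depleted cells (exact permutation p = 0.1 each, the smallest possible). In controls the groups overlapped (exact permutation p = 0.2).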
